A study of Mus musculus with 7 samples.

Results

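The transcriptional response of wild-type mouse macrophages to lipopolysaccharide (LPS) was measured by RNA sequencing in 4 libraries, 2 from untreated cells (called M0 in the labels) and 2 from cells given LPS, which were chosen by their titles out of 7 libraries in all. The cells were bone marrow-derived macrophages, which are marrow cells grown into macrophages in culture. They came from wild-type mice of 6 to 8 weeks, all labelled male, and every culture had 7 days of the growth factor M-CSF at 25 ng/ml. LPS was then given at 10 ng/ml for 6 hours, so the comparison holds a single dose and a single time. The other 3 libraries came from mice lacking Tgm2 (transglutaminase 2), 1 untreated and 2 with LPS. The 2 with LPS entered the estimate of the spread, to which a group of 1 library adds nothing. All 3 entered the comparison of genotypes at the end. Whether the replicates of a group were separate mice or dishes is not stated in the labels. The p-values therefore set a change against the spread of these libraries, and that spread may be technical only. Levels are in TPM, a unit scaled for gene length whose values sum to the same total in every library. TPM hold no read numbers, and the sequencing depth is therefore unknown. Changes are differences of log2(TPM + 1), LPS minus untreated, given with their standard error, and they understate the change of genes at low levels. In each pair of values replicate 1 comes before replicate 2.

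LPS is a component of the outer membrane of Gram-negative bacteria. It is handed by Cd14 and Ly96 to the receptor Tlr4, which signals through Myd88 to NF-kappaB and AP-1 at the cell surface and through Ticam1 and Irf3 from endosomes. The first arm is known for inducing cytokines, chemokines and prostaglandin enzymes, and the second for inducing interferon beta, which acts back on the cells through its own receptor to induce interferon-stimulated genes. Macrophages given LPS are also known to change their metabolism, to make nitric oxide and itaconate, and to lose markers of resting and alternatively activated cells.

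Both LPS libraries went against their label in sex-linked transcripts. Xist, the RNA that coats the inactive X chromosome in female cells, stood at 0.00535 TPM or was listed at 0 in the untreated libraries and at 47.2 and 55.4 TPM in the LPS libraries. The Y-linked gene Eif2s3y stood at 66.1 and 68.1 TPM untreated and at 32.8 and 37.2 TPM with LPS. Of 5 sex-linked markers, Xist and 4 Y-linked genes, 1 rose and 4 fell, or 3 fell with median-ratio scaling. The Y-linked transcripts were thus lower with LPS but present. In the knockout the log2 changes of the 4 Y-linked genes lay between -0.61 and -0.15, and Xist was listed at 0. A difference in the sex of the cells and the LPS treatment cannot be told apart in the wild-type comparison. No comparison can be made without the wild-type LPS libraries. With autosomal genes alone the counts below were 1598 genes higher and 3172 lower. That setting kept the same libraries, so it cannot show how far a sex difference acted on autosomal genes. The median absolute log2 difference was 0.221 between the untreated wild-type replicates, 0.196 between the wild-type LPS replicates and 0.197 between the knockout LPS replicates. WT M0 replicate 2 and the untreated knockout library were closer to each other, at 0.0959.

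Markers of macrophages were present in every library and those of most other cell types were near 0. The 10 macrophage markers summed to 53641 and 48993 TPM untreated and 39012 and 42113 TPM with LPS, most of which was Lyz2. Of these markers 2 rose (Cd14 and Fcgr1), 3 fell (C1qa, Cd68 and Csf1r) and 5 did not pass, among them Emr1 (F4/80) at 1111 and 1386 TPM and 1270.0 and 1351 TPM. The calls of Cd14, Fcgr1 and Csf1r were near the threshold: without WT LPS replicate 1 the change of Fcgr1 was 0.33 (adjusted p = 0.271) and that of Csf1r -0.40 (adjusted p = 0.218). Without WT M0 replicate 2 they were 0.65 (adjusted p = 0.0802) and -0.34 (adjusted p = 0.176). Fcgr1 also did not pass without WT M0 replicate 1 (adjusted p = 0.0959) and Csf1r without WT LPS replicate 2 (adjusted p = 0.115) or with median-ratio scaling (adjusted p = 0.291). Of 10 neutrophil markers 7 stayed under 1 TPM in all 4 libraries, and Retnlg and Cxcr2 were listed at 0. Their sum nevertheless went from 20.5 and 23.4 TPM to 288 and 413 TPM with LPS through S100a8, Mmp8 and Camp, while S100a9, the partner of S100a8, stayed under 1 TPM. The part of such cells in the results was not tested. The 7 stromal markers summed to 31.6 and 43.04 TPM untreated and 21.2 and 23.4 TPM with LPS, with Col1a1, a collagen chain, at 13.2 and 18.6 TPM untreated and listed at 0 with LPS. Pdgfrb, a growth factor receptor of the same list, rose from 1.81 and 2.29 TPM to 18.2 and 21.2 TPM (2.76 ± 0.22) and made up most of the LPS sum. In these bulk samples fewer cells of a type and less RNA per cell cannot be told apart.

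LPS changed the level of many genes in both directions. Of 11096 genes tested, 4949 (44.6%) passed an adjusted p of 0.05 with limma, 1665 (15%) higher and 3284 (29.6%) lower after LPS, and 903 (8.14%) rose and 1609 (14.5%) fell by at least 1 log2 unit. Among the larger changes 71 genes rose and 17 fell by at least 4 log2 units. The 15% higher and 29.6% lower are the shares against which the counts of each list below are to be read. The genes called higher held 14.6 and 16.4% of all TPM before LPS and 41.3 and 39.9% after it, and those called lower held 42.3 and 39.8% and 18.9 and 19.04%. The median gene had a log2 change of -0.21, on a scale whose values sum to a fixed total. Median-ratio scaling, which moved that median by 0.22, gave 2485 genes higher (22.4%) and 2289 lower (20.6%), with 0 genes called in opposite directions. The 4 libraries of the groups did not overlap for 8152 genes (73.5%). They did not overlap for any gene said below to have risen or fallen. The scatter of levels before and after LPS shows these groups of genes.

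**Figure D1:**
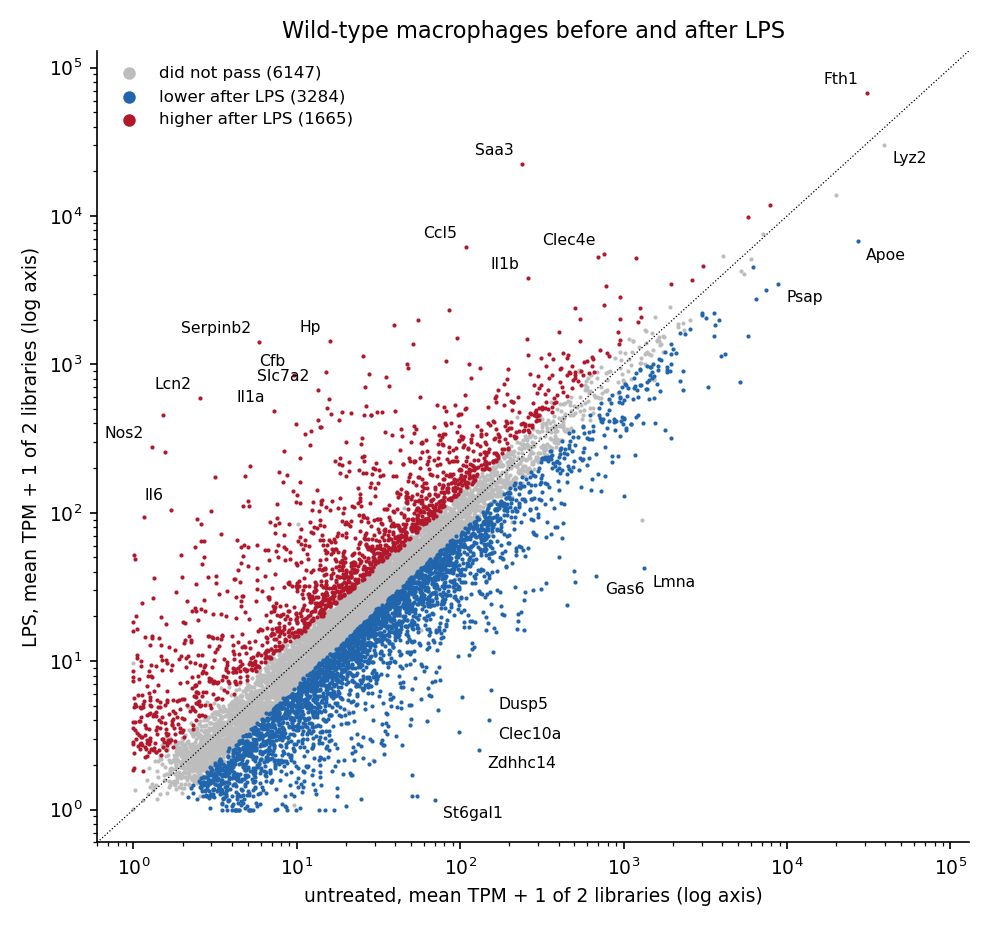
Mean TPM + 1 of the 2 untreated (x, log axis) and the 2 LPS libraries (y, log axis) for 11096 tested genes, red where higher and blue where lower after LPS at an adjusted p of 0.05, grey where the test was not passed; the dotted line marks equal levels. Saa3 and Ccl5 lie far above the line at high levels, and Apoe, Lmna and Gas6 lie below it.

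The genes with the largest rises encoded acute-phase, iron-withholding and antimicrobial proteins besides cytokines. Saa3, an acute-phase serum amyloid A, stood at 362 and 116 TPM untreated and at 23132 and 21499 TPM with LPS, a rise of 6.76 ± 0.39 log2 units that made it the third most abundant protein-coding transcript of the LPS libraries. The untreated libraries differed from each other in Saa3 and both lay far below the LPS libraries. Hp, which binds free haemoglobin, went from 17.1 and 12.7 TPM to 1376 and 1482 TPM (6.50 ± 0.17). Cfb, a protease of the alternative complement pathway, went from 9.45 and 7.64 TPM to 892 and 792 TPM (6.47 ± 0.16). Slpi, a secreted inhibitor of serine proteases, went from 17.98 and 10.2 TPM to 876 and 899 TPM (5.93 ± 0.22). The largest rises and falls were picked among called genes whose groups did not overlap, so the wide gap between the groups follows from that choice. Ly6c2 and Ly6i, surface proteins of the Ly6 family, rose by 7.46 and 6.32; members of that family are near copies of each other, and how reads between them were split is not given. A total of 20 genes were under 1 TPM in both untreated libraries and over 10 TPM in both LPS libraries. Besides Nos2 and Il6 they included Il12a, a subunit of interleukin 12, at 0.0735 TPM or listed at 0 before LPS and at 21.8 and 16.5 TPM after it. Il1f9, an interleukin 1 family cytokine (interleukin 36 gamma), stood at 0.411 and 0.226 TPM and 22.2 and 28.9 TPM.

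The genes with the largest falls were near 0 after LPS, or fell from high levels. Zdhhc14, which attaches palmitate to proteins, stood at 120.2 and 139 TPM untreated and at 1.20 and 1.87 TPM with LPS (-5.70 ± 0.20). Eps8, an actin regulator, went from 39.5 and 60.4 TPM to 0.283 and 0.187 TPM (-5.34 ± 0.24). Lmna, which encodes the nuclear lamins A and C, went from 1393 and 1289 TPM to 38.4 and 43.9 TPM (-4.99 ± 0.15). The LPS libraries lay below the untreated ones for each, which the way the largest falls were picked made certain. Gas6, the ligand that bridges apoptotic cells to the Mertk receptor family, fell from 657 and 704 TPM to 37.3 and 35.4 TPM (-4.19 ± 0.15). Ctgf, a matricellular growth factor, fell by 4.23 and Igfbp4, which binds insulin-like growth factors, by 4.24. There were 18 genes over 10 TPM in both untreated libraries and under 1 TPM in both LPS libraries.

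**Figure D2:**
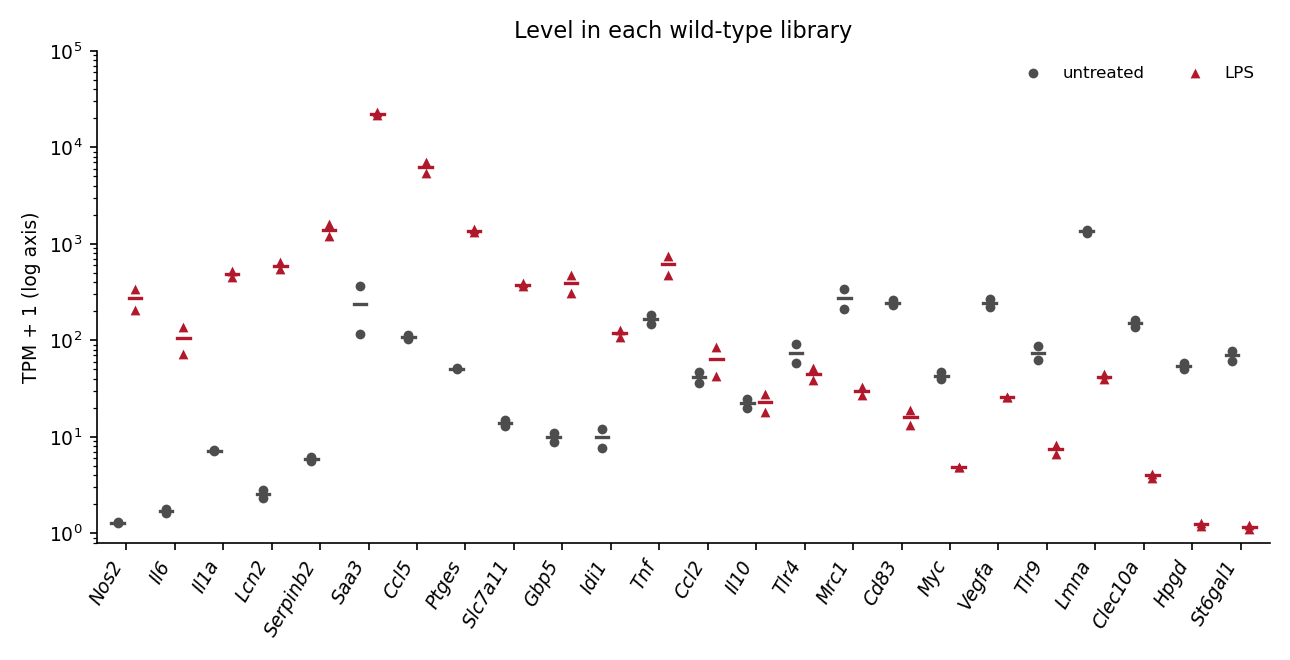
TPM + 1 (log axis) of 24 genes in each wild-type library, grey circles untreated and red triangles LPS, 2 libraries a group; the short line is the mean of the group. The libraries of the groups overlap for Il10 and Ccl2 and are apart for the genes at either end.

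Cytokine transcripts rose from very different resting levels. Of 25 tested inflammatory cytokine genes 19 rose and 2 fell, against 15% and 29.6% of all genes, and their median change of 1.86 lay 2.07 above that of the median gene. Il1a, an alarm cytokine, went from 6.16 and 6.24 TPM to 516 and 448 TPM (6.07 ± 0.18). Its relative Il1b already stood at 223 and 292 TPM before LPS and reached 4243 and 3380.3 TPM (3.89 ± 0.18). Tnf, the tumour necrosis factor, stood at 183 and 146 TPM untreated and at 741 and 480.0 TPM with LPS (1.86 ± 0.23). Il1b and Tnf were thus abundant before LPS, and Il1a was not. Csf3, which drives neutrophil production, went from 1.82 and 1.90 TPM to 50.3 and 21.6 TPM (3.57 ± 0.31). Edn1, the vasoconstrictor endothelin 1, went from 0.115 and 0.145 TPM to 34.2 and 12.8 TPM (4.29 ± 0.35). For both, LPS replicate 1 held more than LPS replicate 2, and both LPS libraries lay far above the untreated ones. Il12b, the subunit shared by interleukins 12 and 23, rose by 3.29 ± 0.22 and Il6, a driver of the acute-phase response, by 5.87 ± 0.27. Il18, a cytokine matured by the inflammasome, rose by 1.42 ± 0.25. The 2 members that fell were Vegfa, an angiogenic factor, from 221 and 268 TPM to 25.2 and 24.6 TPM (-3.24 ± 0.16), and Osm, of the interleukin 6 family, from 11.9 and 14.8 TPM to 7.22 and 5.13 TPM (-1.01 ± 0.24). The change of Osm was -0.86 (adjusted p = 0.0586) without WT M0 replicate 2. Il10, the main anti-inflammatory cytokine, stood at 18.7 and 23.7 TPM untreated and 26.6 and 17.2 TPM with LPS, so that the groups overlapped (limma adjusted p = 0.946). Ifnb1, which encodes interferon beta, was under 1 TPM in all 4 libraries and was not tested.

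Chemokine transcripts rose in most cases, with several already abundant at rest. Of 23 chemokine genes 13 rose and 4 fell, with a median change of 0.70. Cxcl3, a neutrophil attractant, went from 49.5 and 58.8 TPM to 2281 and 1725 TPM (5.18 ± 0.25). Ccl3, which attracts monocytes and T cells, went from 92.4 and 76.2 TPM to 2987 and 1697 TPM (4.73 ± 0.29). Ccl5, which attracts T cells, went from 101 and 113 TPM to 6972 and 5392 TPM (5.83 ± 0.20). The LPS libraries lay far above the untreated ones for all 3, and Ccl5 became the most abundant of them. Cxcl10, an interferon-induced T cell attractant, went from 83.4 and 79.3 TPM to 1619 and 496 TPM (3.45 ± 0.42). The LPS replicates were further apart for Cxcl10 than for Ccl5. Cxcl1, another neutrophil attractant, stood at 298 and 319 TPM untreated and 528 and 372 TPM with LPS and did not pass (0.52 ± 0.20). It passed in several alternatives, with a change of 0.76 (adjusted p = 0.0265) under median-ratio scaling and 0.77 (adjusted p = 0.0244) without WT LPS replicate 2, and at adjusted p = 0.0384 with the compared groups alone. Ccl2, the main monocyte attractant, stood at 46.01 and 35.4 TPM untreated and 85.2 and 42.2 TPM with LPS (0.56 ± 0.28, limma adjusted p = 0.126). LPS replicate 2 lay within the untreated range of Ccl2, and without it the change was 1.06 (adjusted p = 0.00554). The related Ccl7 had a change of 0.70 ± 0.36 and did not pass; without WT LPS replicate 2 it was 1.21 (adjusted p = 0.0279). The members that fell were Ccl24 (-3.15 ± 0.24), an eosinophil attractant, Cxcl14 (-3.07 ± 0.25), Cx3cl1 (-3.05 ± 0.23), the ligand of Cx3cr1, and Ccl6 (-1.50 ± 0.15). Ccl6 was the only one of the 4 that stayed abundant, at 393 and 394 TPM with LPS.

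**Figure D3:**
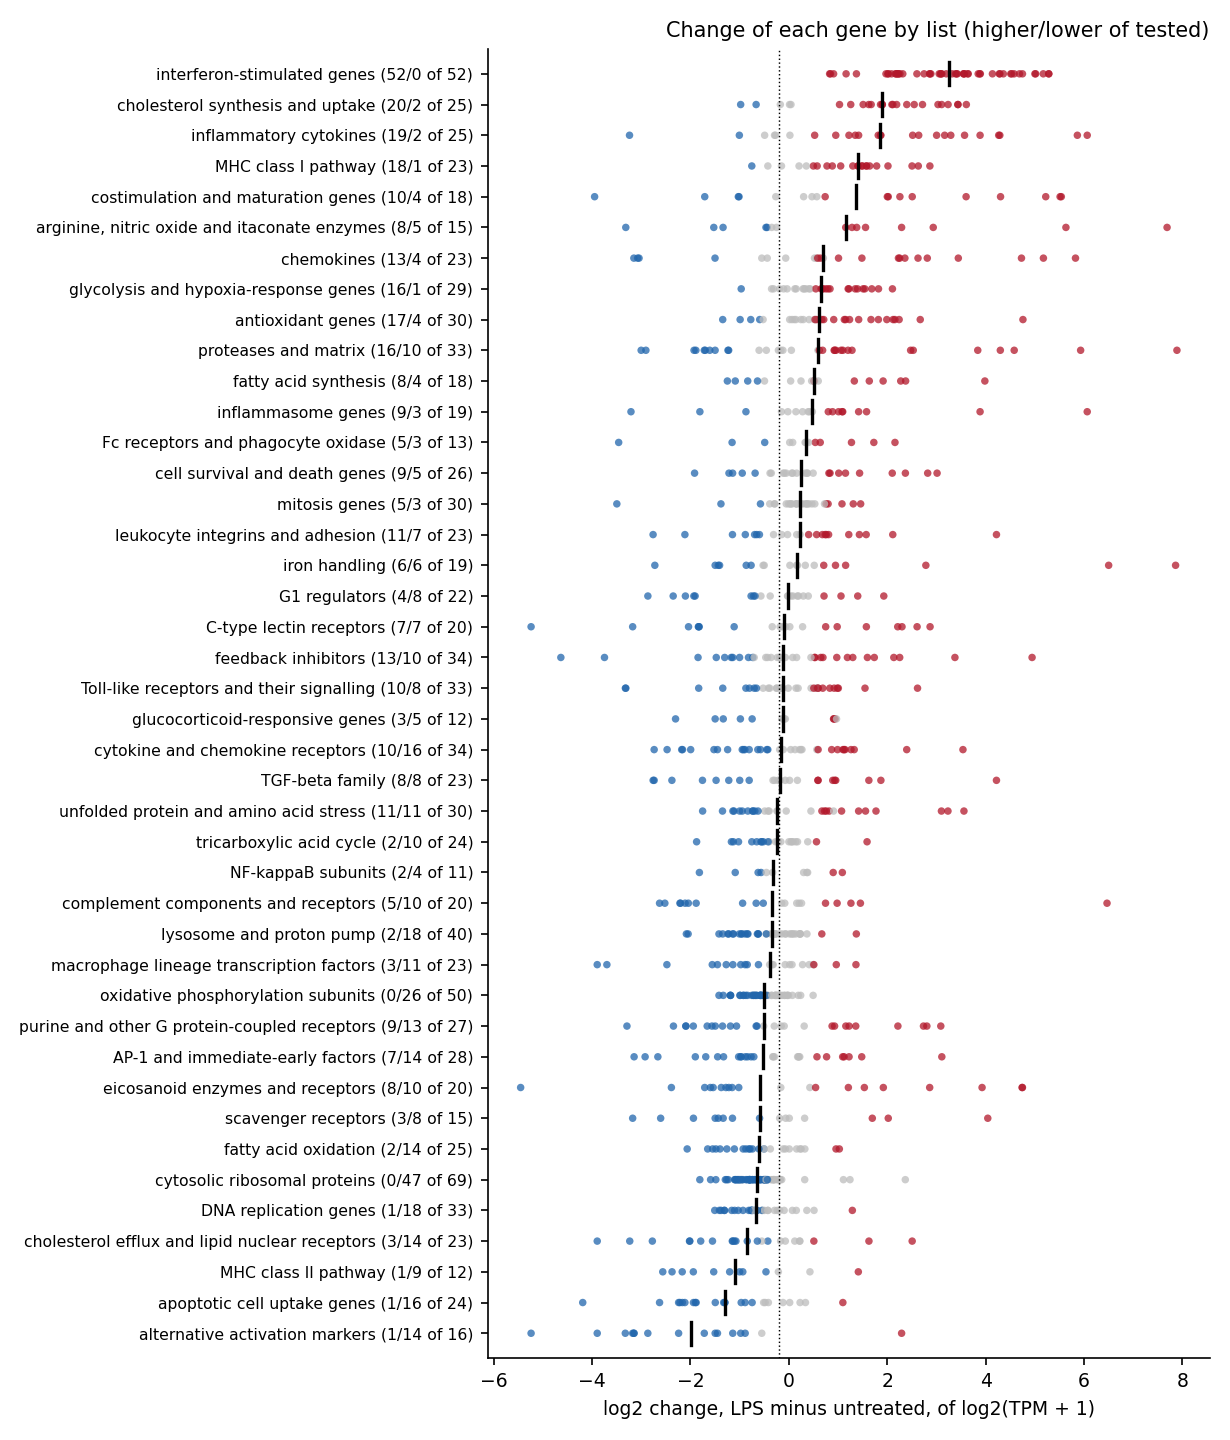
Log2 change (x) of every tested gene of 42 lists, red where higher and blue where lower after LPS at an adjusted p of 0.05, grey where the test was not passed; the black bar is the median of a list and the dotted line the median of all 11096 genes (-0.21). Lists are ordered by their median, from interferon-stimulated genes at the top to alternative activation markers at the bottom, and the counts beside each name are higher and lower of tested.

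Within the Toll-like receptor pathway the receptors themselves went in different directions. Of 33 genes 10 rose (30.3%) and 8 fell (24.2%), the latter below the 29.6% of all genes. Tlr4, the receptor for LPS, went from 56.9 and 90.3 TPM to 37.6 and 50.6 TPM (-0.70 ± 0.25, limma adjusted p = 0.0419). That call was near the threshold: the change was -0.38 (adjusted p = 0.299) without WT M0 replicate 2, -0.49 (adjusted p = 0.248) without WT LPS replicate 1 and -0.47 (adjusted p = 0.14) with median-ratio scaling. The co-receptor Cd14 went from 2610.4 and 3541 TPM to 4718 and 4498 TPM (0.60 ± 0.18). Without WT M0 replicate 1 its change was 0.38 (adjusted p = 0.148), and without WT LPS replicate 1 or 2 it was 0.57 (adjusted p = 0.122) and 0.63 (adjusted p = 0.0783). Tlr3, the receptor for double-stranded RNA, went from 3.71 and 5.62 TPM to 41.9 and 26.3 TPM (2.62 ± 0.26). Tlr7, for single-stranded RNA, went from 55.9 and 93.4 TPM to 227 and 201 TPM (1.55 ± 0.23). Tlr9, for bacterial DNA, went from 61.1 and 86.6 TPM to 5.72 and 7.19 TPM (-3.31 ± 0.22). The endosomal receptors for RNA thus rose and that for DNA fell. Tlr5, for flagellin, fell from 7.37 and 11.5 TPM to 0.0432 TPM in LPS replicate 1 and a value listed at 0 in replicate 2. Tlr6, a partner of Tlr2, rose by 1.01 ± 0.18 and the adaptor Myd88 by 0.99 ± 0.15. Tlr2, for bacterial lipoproteins, stood at 574 and 757 TPM untreated and 597 and 599 TPM with LPS and did not pass (-0.14 ± 0.18, or 0.10 (adjusted p = 0.665) with median-ratio scaling). Ly86, a receptor partner, fell from 403 and 419.9 TPM to 134 and 98.03 TPM (-1.83 ± 0.19), and Irf5, a transcription factor of the pathway, from 473 and 479.8 TPM to 217 and 161 TPM (-1.34 ± 0.17).

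Transcripts of NF-kappaB and of immediate-early factors were not generally higher at 6 hours. Of 11 NF-kappaB subunits and kinases 2 rose (18.2%) and 4 fell (36.4%), near the 15% and 29.6% of all genes. With median-ratio scaling 4 rose and 2 fell, and fewer also fell without WT LPS replicate 2. The kinases Map3k8 (1.09 ± 0.16) and Ikbkg (0.90 ± 0.16) rose, the latter being the regulatory subunit of the kinase complex. Map3k14, the kinase of the alternative NF-kappaB pathway, fell from 43.7 and 48.4 TPM to 11.2 and 13.5 TPM (-1.82 ± 0.18) and the subunit Rel from 39.4 and 52.5 TPM to 21.4 and 20.3 TPM (-1.09 ± 0.18). The subunits Relb (-0.62 ± 0.15) and Nfkb1 (-0.56 ± 0.15) fell less, and neither passed with median-ratio scaling (-0.39 (adjusted p = 0.0672) for Relb and -0.33 (adjusted p = 0.108) for Nfkb1). Without WT LPS replicate 2 they were -0.59 (adjusted p = 0.0533) and -0.49 (adjusted p = 0.0963), and Nfkb1 was -0.49 (adjusted p = 0.0518) without WT M0 replicate 2. Rela had a change of 0.30 ± 0.19 and did not pass. Of 28 AP-1 and immediate-early factors 7 rose and 14 fell. Myc, a growth-promoting transcription factor, went from 38.8 and 45.6 TPM to 3.88 and 3.86 TPM (-3.15 ± 0.19). Fos, a subunit of AP-1, went from 182 and 254 TPM to 50.7 and 63.6 TPM (-1.90 ± 0.20). Nr4a1, an immediate-early nuclear receptor, fell by 2.66. The member that rose most was Batf2, an interferon-inducible factor, from 5.29 and 5.49 TPM to 63.02 and 46.6 TPM (3.11 ± 0.20).

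Feedback inhibitors of these pathways included large rises and large falls. Of 34 genes 13 rose and 10 fell (29.4%), the latter near the 29.6% of all genes. Usp18, which restrains interferon signalling, went from 14.4 and 10.4 TPM to 522 and 319 TPM (4.95 ± 0.24). Socs1, an inhibitor of cytokine receptor kinases, went from 4.32 and 5.13 TPM to 69.6 and 48.8 TPM (3.38 ± 0.23). Irak3, an inhibitor of Toll-like receptor signalling, went from 77.99 and 84.4 TPM to 372 and 410.3 TPM (2.25 ± 0.15). These 3 had the largest rises of the list. Dusp5, a phosphatase of the kinase ERK, went from 114 and 191 TPM to 7.44 and 3.24 TPM (-4.63 ± 0.34). Zfp36l1, which destabilises mRNA, went from 184 and 259.8 TPM to 14.9 and 15.8 TPM (-3.75 ± 0.19), and its relative Zfp36 from 589 and 766 TPM to 304 and 191 TPM (-1.48 ± 0.27). Dusp1, a phosphatase of the stress kinases, stood at 232 and 305 TPM untreated and 301 and 213 TPM with LPS and did not pass (-0.07 ± 0.20).

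Several transcription factors of the macrophage lineage fell. Of 23 genes 11 fell and 3 rose. Pparg, the nuclear receptor for fatty acids, went from 27.3 and 38.7 TPM to 0.671 and 2.04 TPM (-3.90 ± 0.30). Id3, an inhibitor of helix-loop-helix factors, went from 464 and 534 TPM to 51.6 and 27.02 TPM (-3.70 ± 0.25). Both were lower in both LPS libraries than in either untreated one. Sfpi1 (PU.1), the master factor, stood at 1143 and 1008 TPM untreated and 1142 and 1032 TPM with LPS and did not pass (0.02 ± 0.15). Cebpb, an inducible factor, stood at 823 and 1340.4 TPM and 1671 and 1309.7 TPM and did not pass (0.49 ± 0.26, or 0.85 (adjusted p = 0.0442) without WT M0 replicate 2). Bhlhe41 rose from 33.99 and 42.8 TPM to 112 and 89.000 TPM (1.36 ± 0.27).

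Interferon-stimulated genes formed the list with the highest median. All 52 tested members rose, against 15% of all genes, also with median-ratio scaling, with a median change of 3.26 and a range from 0.83 (Irf1) to 5.28 (Gbp5). Together they held 0.447 and 0.394% of all TPM before LPS and 2.50 and 1.83% after it. Gbp5 and Gbp3 are guanylate-binding proteins, GTPases that attack the vacuoles of pathogens. Gbp5 went from 9.96 and 7.94 TPM to 475 and 312 TPM (5.28 ± 0.21). Gbp3 went from 15.4 and 13.1 TPM to 631 and 376 TPM (5.002 ± 0.22). Ifit1, which binds foreign RNA, went from 26.7 and 23.2 TPM to 806 and 601 TPM (4.75 ± 0.19). LPS replicate 1 held more than LPS replicate 2 for each of these 3. Ifit2 showed it most among the genes named here, with 663 TPM in replicate 1 and 261 TPM in replicate 2 after 15.2 and 15.1 TPM untreated (4.69 ± 0.33). Ifi44 rose by 5.28 ± 0.23, and Slfn1 and Slfn4, of the Schlafen family, by 5.17 and 5.02. Gbp and Slfn genes have near copies, and how reads were shared between them is not given. Ifitm3, which blocks viral entry, had the highest resting level of the list, 2119 and 1753 TPM, and one of the smallest rises (0.85 ± 0.18).

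The promoters of these genes were searched for the letters of known binding motifs, as a description of the sequence and with no test. The window was the 250 bases before the start of each gene, and 8818 tested genes had a RefSeq promoter. The interferon-stimulated response element (GAAA, any 2 bases, then GAAA), searched on both strands, was present in 251 of them (2.85%). It was present in 93 of 1314 genes that rose (7.08%), in 49 of 277 that rose by at least 2 log2 units (17.7%) and in 61 of 2617 that fell (2.33%). Of the interferon-stimulated genes 19 of 40 held it (47.5%), and of the cytosolic ribosomal protein genes, of which 0 were called higher, 6 of 52 (11.5%). The NF-kappaB motif, also on both strands, was present in 384 of 8818 windows (4.35%). It was present in 91 of 1314 genes that rose (6.93%) and in 108 of 2617 that fell (4.13%). Among genes that rose by at least 2 log2 units 19 of 277 held it (6.86%), and 13 of 263 that fell by as much (4.94%). Of the chemokines 5 of 15 held it and of the cytokines 4 of 18. The TATA box TATAAA, on both strands, was present in 543 of 8818 windows (6.16%) in 40 of 277 of the genes that rose by at least 2 log2 units (14.4%) and in 25 of 263 of those that fell by as much (9.51%). A match does not show that a factor binds. The windows below are shown because they belong to the cytokine, chemokine and interferon-stimulated genes with the largest rises among those that held a match. They are from RefSeq for GRCm38.p6, 5′ to 3′ on the strand of the gene, with the matches in capitals. Their positions are chr5:30012864-30013113 for Il6, chr5:90785851-90786100 for Cxcl3, chr3:142496684-142496933 for Gbp5 and chr3:142559794-142560043 for Gbp3, all on the plus strand. The match began 44 bases before the start of Il6 and 165 bases before that of Gbp5. In Cxcl3 overlapping matches on the 2 strands began 73 and 72 bases before the start, and in Gbp3 overlapping matches began 45 and 39 bases before it.
Il6: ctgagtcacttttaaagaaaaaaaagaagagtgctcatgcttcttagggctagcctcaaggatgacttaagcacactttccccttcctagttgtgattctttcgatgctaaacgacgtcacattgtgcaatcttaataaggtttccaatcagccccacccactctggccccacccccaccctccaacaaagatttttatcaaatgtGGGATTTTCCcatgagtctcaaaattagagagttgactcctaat
Cxcl3: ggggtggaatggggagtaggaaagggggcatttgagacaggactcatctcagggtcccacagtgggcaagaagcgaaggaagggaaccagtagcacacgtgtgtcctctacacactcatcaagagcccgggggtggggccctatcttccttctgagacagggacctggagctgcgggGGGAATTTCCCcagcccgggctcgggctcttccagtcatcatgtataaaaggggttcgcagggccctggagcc
Gbp5: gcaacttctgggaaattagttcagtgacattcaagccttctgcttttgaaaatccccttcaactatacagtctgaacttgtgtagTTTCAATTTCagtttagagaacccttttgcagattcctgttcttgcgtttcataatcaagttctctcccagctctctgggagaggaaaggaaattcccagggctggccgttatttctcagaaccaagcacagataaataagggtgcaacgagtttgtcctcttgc
Gbp3: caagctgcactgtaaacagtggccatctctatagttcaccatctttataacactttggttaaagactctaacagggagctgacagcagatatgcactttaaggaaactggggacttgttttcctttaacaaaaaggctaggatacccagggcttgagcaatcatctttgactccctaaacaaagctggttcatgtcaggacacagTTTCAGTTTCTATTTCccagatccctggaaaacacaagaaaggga

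Genes for presenting antigen on MHC class I rose, and those for class II fell. Of 23 class I pathway genes 18 rose and 1 fell, with a median change of 1.41. Of 12 class II pathway genes 1 rose and 9 fell, with a median of -1.10. Nlrc5, the activator of class I genes, went from 13.01 and 12.8 TPM to 112 and 64.7 TPM (2.63 ± 0.23). Tap1, a subunit of the peptide transporter for class I, went from 44.8 and 41.6 TPM to 398 and 259 TPM (2.87 ± 0.22). Psme2, a proteasome activator, went from 229.5 and 142 TPM to 773 and 693 TPM (2.02 ± 0.21). The activator, the transporter and the proteasome step thus rose alike. Calr, a chaperone of class I molecules, was the member that fell (-0.75 ± 0.17), and it did not pass with median-ratio scaling (-0.51 (adjusted p = 0.0538)). Ciita, the activator of class II genes, went from 6.99 and 5.62 TPM to 0.883 and 0.905 TPM (-1.94 ± 0.21). H2-Aa, a class II chain, went from 1858 and 1814 TPM to 948 and 886 TPM (-1.001 ± 0.15). H2-DMa, which loads peptides on class II, fell from 139 and 163 TPM to 29.8 and 26.6 TPM (-2.37 ± 0.25). The class II chain stayed abundant while its activator reached levels under 1 TPM. H2-Oa, which restrains peptide loading, was the class II member that rose (1.41 ± 0.28), to 2.68 and 1.44 TPM.

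The list of costimulation and maturation genes showed both directions as well. Of 18 tested 10 rose (55.6%) and 4 fell (22.2%), against 15% and 29.6% of all genes. Cd274, the inhibitory ligand PD-L1, went from 25.9 and 25.5 TPM to 546 and 506 TPM (4.30 ± 0.16). Cd38, which consumes NAD, went from 12.3 and 17.1 TPM to 542 and 616 TPM (5.22 ± 0.20). Fpr1, a receptor for bacterial formyl peptides, went from 39.1 and 37.9 TPM to 1829 and 1844 TPM (5.54 ± 0.15). The replicates of each group lay close together for these 3. Cd40, the receptor for T cell help, rose by 2.26 ± 0.21. Cd83, a maturation marker of dendritic cells, fell from 230.4 and 259.8 TPM to 17.9 and 12.4 TPM (-3.95 ± 0.19). Cd86, a ligand of the T cell receptor Cd28, fell from 134 and 177 TPM to 43.3 and 49.8 TPM (-1.71 ± 0.21).

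Markers of alternative activation and genes for the uptake of dying cells fell. Of 16 tested alternative activation markers 14 fell and 1 rose, against 29.6% and 15% of all genes, and of 24 apoptotic cell uptake genes 16 fell and 1 rose. The uptake genes held 2.13 and 1.79% of all TPM before LPS and 0.666 and 0.650% after it. Clec10a, a galactose-binding lectin, fell by 5.24, and the mannose receptor Mrc1 went from 212 and 341 TPM to 26.1 and 31.9 TPM (-3.17 ± 0.22). Trem2, a lipid-sensing receptor, went from 1304 and 1032 TPM to 238 and 251 TPM (-2.24 ± 0.17). C1qa, a chain of complement C1q, went from 2216 and 1701 TPM to 363 and 271 TPM (-2.63 ± 0.25). Stab1, a scavenger receptor, went from 658 and 743 TPM to 182 and 181 TPM (-1.94 ± 0.15). Receptors and the soluble bridge to dying cells thus fell together with Gas6. The kinase receptors that bind Gas6 did not pass: Mertk stood at 27.1 and 30.2 TPM untreated and 24.7 and 18.2 TPM with LPS (-0.42 ± 0.19). Axl stood at 34.7 and 35.2 TPM untreated and 39.2 and 50.3 TPM with LPS (0.34 ± 0.25). Thbs1, which bridges dying cells to Cd36, was the uptake gene that rose, from 159 and 299 TPM to 550.1 and 399 TPM (1.10 ± 0.26). Its change was 0.65 (adjusted p = 0.0503) without WT M0 replicate 1 and 0.87 (adjusted p = 0.0649) without WT LPS replicate 1. Arg1, arginase 1, was the alternative activation marker that rose, from 1.12 and 1.09 TPM to 7.69 and 11.2 TPM (2.29 ± 0.24). Tgm2, the gene deleted in the knockout mice and also a marker of alternative activation, fell from 433 and 368 TPM to 233 and 199 TPM (-0.89 ± 0.16).

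The chains of complement C1q fell, while C3 and Cfb rose. Of 20 tested complement genes 5 rose and 10 fell, or 3 rose without WT M0 replicate 1. C1qb and C1qc, the other chains of C1q, fell from 6238 and 5277 TPM to 1553 and 1554 TPM (-1.88 ± 0.16) and from 3762 and 2796 TPM to 714 and 683 TPM (-2.21 ± 0.17). Cfb, given above, and C3, the central component, rose. C3 went from 207 and 202 TPM to 553 and 571 TPM (1.46 ± 0.14). Serping1, an inhibitor of the classical pathway, stood at 2.29 and 4.17 TPM untreated and was listed at 0 with LPS.

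Surface receptors for microbes changed member by member. Of 20 C-type lectin genes 7 rose and 7 fell (35.0% each), against 15% and 29.6% of all genes. Clec4e (Mincle), which recognises mycobacterial glycolipids, went from 760.0 and 749.7 TPM to 5329 and 5738 TPM (2.87 ± 0.16) and was among the most abundant transcripts of the LPS libraries. Clec7a (Dectin-1), which recognises fungal glucan, fell from 171 and 233 TPM to 86.8 and 97.5 TPM (-1.11 ± 0.20). Of 15 scavenger receptor genes 3 rose and 8 fell. Marco, which binds bacteria, went from 13.4 and 5.45 TPM to 194 and 129 TPM (4.04 ± 0.36). Msr1, which binds modified lipoproteins, went from 253 and 278 TPM to 827 and 900.1 TPM (1.70 ± 0.17). Both were above the untreated range in each LPS library. The inhibitory Fc receptor Fcgr2b went from 262 and 256 TPM to 1089 and 1234 TPM (2.16 ± 0.15). Fcgrt, which recycles antibody, went from 218 and 249 TPM to 18.8 and 21.8 TPM (-3.46 ± 0.19). Cybb, the catalytic subunit of the phagocyte oxidase, rose by 1.73 ± 0.17.

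Receptors for soluble signals showed the same mixture. Of 34 receptors for cytokines and chemokines 10 rose and 16 fell, or 12 and 11 with median-ratio scaling. Il15ra, which presents interleukin 15, went from 4.22 and 3.79 TPM to 67.3 and 48.5 TPM (3.54 ± 0.20), and Ccr2, the receptor for Ccl2, from 8.66 and 14.8 TPM to 1.09 and 1.37 TPM (-2.47 ± 0.26). Of 27 receptors for nucleotides, lipids and metabolites 9 rose and 13 fell. Niacr1 (Hcar2), the receptor for niacin and ketone bodies, went from 3.45 and 2.82 TPM to 42.8 and 27.1 TPM (3.09 ± 0.23). Adora2a, an adenosine receptor, went from 17.9 and 11.997 TPM to 114 and 93.9 TPM (2.74 ± 0.21). Entpd1, which degrades extracellular ATP on the way to adenosine, went from 104 and 136 TPM to 9.66 and 13.1 TPM (-3.29 ± 0.21). Adora2b, another adenosine receptor, fell from 88.98 and 109 TPM to 60.8 and 64.3 TPM (-0.65 ± 0.17). It did not pass with median-ratio scaling (-0.41 (adjusted p = 0.063)), without WT M0 replicate 2 (-0.50 (adjusted p = 0.08)) or without WT LPS replicate 1 (-0.61 (adjusted p = 0.0775)). P2rx4, an ATP-gated channel, stood at 309 and 338 TPM untreated and 279 and 248 TPM with LPS and did not pass (-0.30 ± 0.15, or -0.46 (adjusted p = 0.0302) with quantile normalization).

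Of 23 integrin and adhesion genes 11 rose (47.8%) and 7 fell (30.4%), the latter near the 29.6% of all genes. With median-ratio scaling 4 fell, and fewer also fell without WT LPS replicate 1. Itgal, the alpha chain of the integrin LFA-1, went from 81.98 and 73.9 TPM to 347 and 334 TPM (2.11 ± 0.15). Itgb8, part of an integrin that activates TGF-beta, went from 0.900 and 1.06 TPM to 34.7 and 37.1 TPM (4.22 ± 0.20). Itga6, a laminin receptor chain, fell from 41.2 and 62.1 TPM to 5.77 and 7.58 TPM (-2.76 ± 0.23). Itgam, the abundant chain of the integrin Mac-1, stood at 736 and 829.8 TPM and 876 and 872 TPM and did not pass, or passed with a change of 0.40 (adjusted p = 0.0494) under median-ratio scaling. In the TGF-beta family 8 of 23 genes rose and 8 fell (34.8% each), against 15% and 29.6% of all genes. Fewer rose without WT LPS replicate 1. Tgfbr2, a receptor for TGF-beta, went from 102 and 142 TPM to 14.9 and 19.8 TPM (-2.74 ± 0.22). Smad3, which carries its signal to the nucleus, went from 16.2 and 17.2 TPM to 1.56 and 1.67 TPM (-2.76 ± 0.21). The ligand Tgfb1 stood at 389 and 479.9 TPM untreated and 382 and 327 TPM with LPS and did not pass (-0.29 ± 0.20), while Inhba, an activin subunit, rose by 1.87 ± 0.23.

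Enzymes that make nitric oxide, itaconate and prostaglandin E2 rose. Of 15 genes of arginine, nitric oxide and itaconate metabolism 8 rose and 5 fell, or 3 fell with median-ratio scaling and when any 1 of the 4 wild-type libraries was left out. Nos2, the inducible nitric oxide synthase, went from 0.317 and 0.270 TPM to 343 and 206 TPM (7.69 ± 0.22). Slc7a2, which imports its substrate arginine, went from 12.3 and 12.5 TPM to 601 and 734 TPM (5.63 ± 0.17). Gch1, which makes its cofactor, rose by 1.38 ± 0.20. The enzyme was all but silent before LPS, while the importer was not. Irg1 (Acod1), which makes itaconate, stood at 729 and 658 TPM before LPS and at 5582 and 5044 TPM after it (2.94 ± 0.15). Odc1, which turns the arginine product ornithine into polyamines, fell from 325 and 346 TPM to 33.3 and 32.4 TPM (-3.31 ± 0.16).

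Of 20 eicosanoid genes 8 rose and 10 fell, and the steps to prostaglandin E2 were among those that rose. Pla2g4a, which frees arachidonic acid, went from 12.3 and 15.8 TPM to 109.6 and 106 TPM (2.86 ± 0.17). Ptgs2, the inducible cyclooxygenase, rose by 4.75 ± 0.24. Ptges, the synthase of prostaglandin E2, went from 49.7 and 50.4 TPM to 1312 and 1419 TPM (4.74 ± 0.14). Hpgd, which inactivates prostaglandins, went the other way, from 49.5 and 57.3 TPM to 0.201 and 0.280 TPM (-5.45 ± 0.20). The constitutive cyclooxygenase Ptgs1 fell from 10.4 and 19.1 TPM to 2.23 and 1.59 TPM (-2.39 ± 0.27). Enzymes of other branches fell as well, among them Tbxas1 (-1.59 ± 0.16), the thromboxane synthase, and Alox5 (-1.54 ± 0.23), the entry to leukotrienes. Ptgfr, the receptor for prostaglandin F2 alpha, was listed at 0 in both untreated libraries and stood at 19.4 and 10.4 TPM with LPS.

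Many glycolytic genes rose, and many genes of fatty acid oxidation fell. Of 29 glycolysis and hypoxia-response genes 16 rose and 1 fell, with a median change of 0.66. Pfkfb3, which makes the activator of phosphofructokinase, went from 53.5 and 61.5 TPM to 314 and 199 TPM (2.11 ± 0.21). Hk2, an inducible hexokinase, went from 15.8 and 16.2 TPM to 48.5 and 46.5 TPM (1.51 ± 0.16). Pfkl, a phosphofructokinase, went from 31.6 and 28.9 TPM to 88.5 and 91.8 TPM (1.55 ± 0.15). The hexokinase and phosphofructokinase steps were thus higher with LPS. The abundant enzymes Gapdh (0.41 ± 0.18) and Pkm2 (0.34 ± 0.15) did not pass, and both passed with median-ratio scaling (0.65 (adjusted p = 0.0221) for Gapdh and 0.58 (adjusted p = 0.0194) for Pkm2). Of 24 tricarboxylic acid cycle genes 10 fell (41.7%, against 29.6% of all genes) and 2 rose. With median-ratio scaling 5 fell, a share near the 20.6% of all genes, and it was 5 without WT M0 replicate 1, 5 without WT LPS replicate 1 and 6 without WT LPS replicate 2. Idh2, mitochondrial isocitrate dehydrogenase, fell from 41.5 and 41.2 TPM to 8.53 and 12.97 TPM (-1.87 ± 0.21). Pcx, which feeds the cycle from pyruvate, rose from 1.90 and 1.65 TPM to 6.68 and 8.06 TPM (1.59 ± 0.21). Of 25 fatty acid oxidation genes 14 fell and 2 rose, with 5 rising under median-ratio scaling and 1 without WT M0 replicate 1. Hadh (-2.07 ± 0.30) and Acaa2 (-1.65 ± 0.19), enzymes of beta-oxidation, had the largest falls.

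The falls of respiratory chain and ribosomal protein genes were smaller, and their number depended on the scaling and on the libraries kept. Of 50 oxidative phosphorylation subunits 26 fell (52.0%, against 29.6% of all genes) and 0 rose, with a median change of -0.50. With median-ratio scaling 7 fell, a share below the 20.6% of all genes, and 1 rose. Fewer fell without 1 wild-type library, as over all genes. Set against the median gene, the list median was -0.29, or -0.27 with median-ratio scaling. It was -0.08 without WT M0 replicate 1 and -0.44 without WT M0 replicate 2. Without WT LPS replicate 1 or 2 it was -0.30 and -0.29. Cox8a, a subunit of cytochrome oxidase, stood at 616 and 282 TPM untreated and at 180.4 and 183 TPM with LPS. The untreated replicates of Cox8a were further apart than untreated replicate 2 and the LPS libraries. Of 69 cytosolic ribosomal protein genes 47 fell and 0 rose. With median-ratio scaling 18 fell, against 20.6% of all genes. Fewer than 47 fell without WT M0 replicate 1 or without either WT LPS library, where fewer genes also fell in all. Rps29, of the small subunit, stood at 3107 and 491 TPM untreated and 285 and 435 TPM with LPS. Untreated replicate 1 stood far above the other 3 libraries, and without it the change was -0.48 (adjusted p = 0.181). Without WT LPS replicate 1 or 2 it was -1.51 (adjusted p = 0.162) and -2.11 (adjusted p = 0.0517). The ribosomal genes held 9.20 and 7.90% of all TPM before LPS and 5.36 and 5.45% after it.

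**Figure D4:**
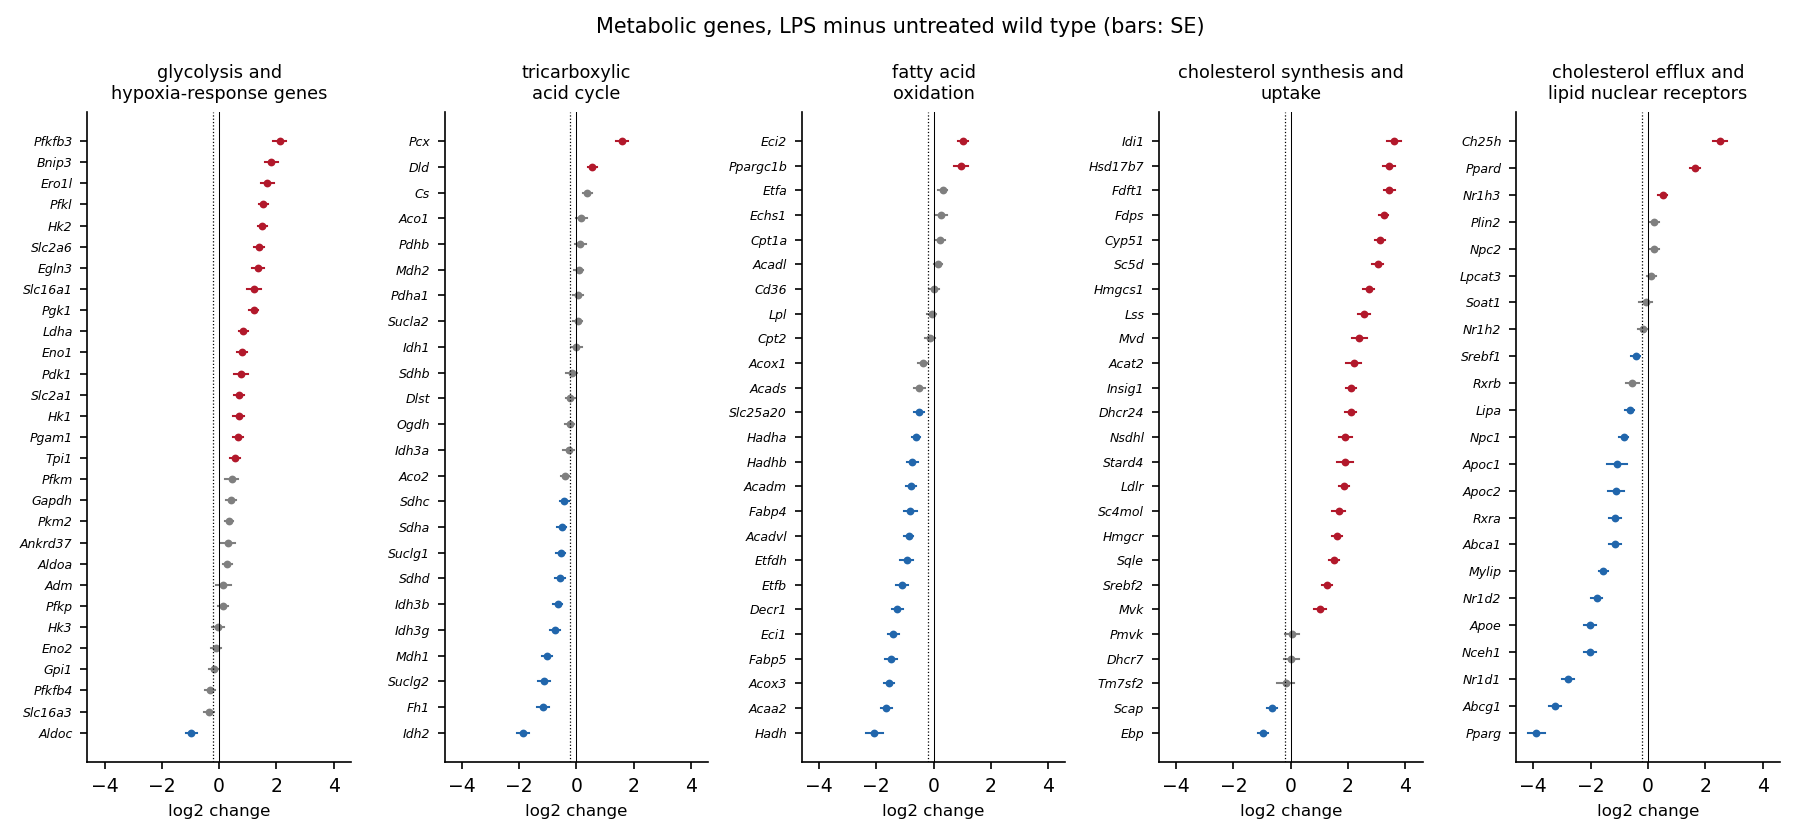
Log2 change (x) with its standard error of each tested gene of 5 metabolic lists, red where higher and blue where lower after LPS at an adjusted p of 0.05, grey where the test was not passed; the dotted line is the median of all genes (-0.21). Most glycolysis and cholesterol synthesis genes lie to the right of 0, and most genes of fatty acid oxidation and cholesterol efflux to the left.

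Genes that make or import cholesterol rose, and those that export it fell. Of 25 synthesis and uptake genes 20 rose and 2 fell, with a median change of 1.90. In the knockout, whose change rests on 1 untreated library, the median change of this list was 0.11. Of 23 genes of efflux and lipid nuclear receptors 14 fell and 3 rose, with a median of -0.84. With median-ratio scaling 10 of them fell and 4 rose. Hmgcs1, which makes the precursor of mevalonate, went from 26.1 and 31.98 TPM to 175 and 219 TPM (2.72 ± 0.18). Idi1, which makes the reactive isoprenoid unit, went from 6.68 and 11.1 TPM to 107 and 127 TPM (3.61 ± 0.23). Cyp51, which demethylates lanosterol, went from 11.7 and 14.7 TPM to 112 and 129.9 TPM (3.11 ± 0.18). The 2 members that fell were Ebp (-0.98 ± 0.17), a late isomerase, and Scap (-0.66 ± 0.17), the escort of the sterol-regulated transcription factors, whose change without WT LPS replicate 1 was -0.64 (adjusted p = 0.0554). On the export side Abcg1 went from 57.5 and 80.98 TPM to 7.16 and 5.64 TPM (-3.23 ± 0.21). Abca1, the other main exporter, went from 231 and 316 TPM to 106 and 139 TPM (-1.15 ± 0.21). Apoe, which carries exported lipid, went from 30826 and 23526 TPM to 7682 and 5794 TPM (-2.01 ± 0.21). The 2 exporters and the carrier were thus all lower. Ch25h, which makes the signalling lipid 25-hydroxycholesterol, rose from 11.02 and 9.49 TPM to 80.9 and 48.8 TPM (2.51 ± 0.24). Of 18 fatty acid synthesis genes 8 rose and 4 fell, or 2 fell with median-ratio scaling. Acsl1, which activates fatty acids, went from 98.2 and 90.2 TPM to 1418 and 1598 TPM (3.99 ± 0.15).

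Hmgcs1 was the 1 of 18 cholesterol genes whose 250-base window held the sterol element TCACNCCAC on either strand, against 78 of 8818 windows of all tested genes (0.885%). Its window, shown as the only match of the list, lies at chr13:119690101-119690350 of GRCm38.p6 (RefSeq, plus strand), and the match, in capitals, begins 137 bases before the start.
Hmgcs1: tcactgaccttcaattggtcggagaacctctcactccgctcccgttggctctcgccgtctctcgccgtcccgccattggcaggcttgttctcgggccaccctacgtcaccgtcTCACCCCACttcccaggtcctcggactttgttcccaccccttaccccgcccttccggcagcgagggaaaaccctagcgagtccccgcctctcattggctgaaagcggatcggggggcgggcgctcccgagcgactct

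Many antioxidant genes rose. Of 30 antioxidant genes 17 rose and 4 fell (2 without WT LPS replicate 2 and 2 with median-ratio scaling), with a median change of 0.62. Slc7a11, the cystine importer, went from 12.01 and 13.9 TPM to 365 and 388 TPM (4.76 ± 0.16). Prdx1, a peroxiredoxin, went from 1223 and 1164 TPM to 4968 and 5411 TPM (2.12 ± 0.15). Gpx1, a glutathione peroxidase, fell from 1015 and 961 TPM to 330.4 and 456 TPM (-1.34 ± 0.23). Of 19 iron genes 6 rose and 6 fell (31.6%, near the 29.6% of all genes). Fth1, the ferritin heavy chain and the most abundant protein-coding transcript with LPS, rose from 25803 and 35693 TPM to 64269.5 and 71016 TPM (1.15 ± 0.21, limma adjusted p = 0.00121, or 0.203 with no filter on low values). Ftl1, the light chain, stood at 20150.5 and 19601 TPM untreated and 14657 and 13052 TPM with LPS and did not pass (-0.52 ± 0.20, limma adjusted p = 0.0605). It passed at adjusted p = 0.0386 with a minimum mean TPM of 5, 0.0206 with the compared groups alone, and 0.0214 and 0.0244 without either knockout LPS library. The heavy chain was thus higher and the light chain lower in both LPS libraries. Tfrc, the transferrin receptor, fell from 36.4 and 54.6 TPM to 14.8 and 17.7 TPM (-1.41 ± 0.21). Cp, a ferroxidase, rose from 15.7 and 19.1 TPM to 123 and 128 TPM (2.79 ± 0.18), and Lcn2, which binds bacterial siderophores, rose by 7.86 ± 0.17.

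Genes of the unfolded protein and amino acid stress responses included rises and falls. Of 30 such genes 11 rose and 11 fell (36.7% each), against 15% and 29.6% of all genes. Fewer rose without WT LPS replicate 1. Phgdh, the entry to serine synthesis, went from 2.42 and 1.94 TPM to 33.9 and 39.2 TPM (3.56 ± 0.23). Asns, asparagine synthetase, went from 8.21 and 7.61 TPM to 92.2 and 74.4 TPM (3.23 ± 0.18). Mthfd2, of mitochondrial folate metabolism, went from 14.5 and 11.5 TPM to 126 and 111 TPM (3.10 ± 0.17). These 3, with the amino acid transporter chain Slc3a2 (1.77 ± 0.30), had the largest rises. The largest falls were of Sdf2l1 (-1.75 ± 0.17) and Pdia4 (-1.35 ± 0.20), which act in the endoplasmic reticulum, and Xbp1, a transcription factor of the unfolded protein response, fell by 1.11. Hspa5, the abundant chaperone of that compartment, stood at 529 and 619 TPM untreated and 512 and 465 TPM with LPS and did not pass.

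Genes of DNA replication fell from low levels, and those of mitosis mostly did not pass under the deposited scaling. Of 33 replication genes 18 fell (54.5%) and 1 rose (3.03%), against 29.6% and 15% of all genes. Fewer fell without WT M0 replicate 1, WT M0 replicate 2 or WT LPS replicate 1, as over all genes. Mcm2, a subunit of the replicative helicase, went from 5.46 and 4.58 TPM to 0.653 and 1.70 TPM (-1.51 ± 0.26). Of 30 mitosis genes 5 rose (16.7%) and 3 fell (10.0%), against 15% and 29.6% of all genes. The number that rose was 10 under median-ratio scaling, where 22.4% of all genes rose. It was 15 under quantile normalization, where 2251 of 11096 genes rose. That number also changed when WT M0 replicate 1 or either WT LPS replicate was left out, as did the number over all genes. Cenpa, the histone of centromeres, fell from 60.5 and 69.2 TPM to 4.38 and 5.29 TPM (-3.50 ± 0.18). Of 22 regulators of the G1 phase 4 rose (18.2%) and 8 fell (36.4%), near the 15% and 29.6% of all genes. Fewer rose without WT M0 replicate 1 or without WT LPS replicate 1. Ccnd1, the cyclin induced by growth factors, went from 23.1 and 21.4 TPM to 2.56 and 1.85 TPM (-2.87 ± 0.20). Its kinase Cdk6 fell from 28.7 and 53.3 TPM to 7.30 and 6.47 TPM (-2.35 ± 0.26), and the related cyclin Ccnd3 rose from 27.6 and 21.95 TPM to 65.5 and 67.8 TPM (1.40 ± 0.17).

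Of 33 protease and matrix genes 16 rose and 10 fell, against 15% and 29.6% of all genes. Serpinb2, an inhibitor of plasminogen activators, had the largest rise of the genes named here, from 4.57 and 5.19 TPM to 1594 and 1216 TPM (7.89 ± 0.18). Mmp13, a collagenase, went from 29.2 and 35.2 TPM to 525 and 425 TPM (3.84 ± 0.18). F10, coagulation factor X, went from 11.7 and 10.3 TPM to 289.9 and 281 TPM (4.58 ± 0.15). Secreted proteases and an inhibitor thus rose side by side. Timp2, an inhibitor of matrix proteases, fell from 353 and 452 TPM to 47.99 and 49.98 TPM (-3.002 ± 0.17). Of 40 lysosome genes 18 fell and 2 rose, or 14 and 5 with median-ratio scaling, and their share of all TPM went from 4.12 and 4.36% to 2.46 and 2.61%. Psap, the precursor of cofactors for lipid breakdown, went from 8602 and 9109 TPM to 3284 and 3698 TPM (-1.34 ± 0.16). Ctsd, a lysosomal protease, went from 7327 and 7633 TPM to 3018 and 3332 TPM (-1.24 ± 0.16).

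Genes of cell death and of the inflammasome rose more in number than they fell. Of 26 survival and death genes 9 rose (34.6%) and 5 fell (19.2%), against 15% and 29.6% of all genes. Of 19 inflammasome genes 9 rose (47.4%) and 3 fell (15.8%). Mlkl, the executor of necroptosis, went from 15.6 and 15.2 TPM to 149.7 and 88.3 TPM (2.82 ± 0.23). Cflar, which blocks caspase 8, rose by 1.44 ± 0.15. Casp1, the caspase that matures interleukin 1 beta, rose by 1.08 ± 0.16 and Gsdmd, its pore-forming substrate, by 1.10 ± 0.17. Pycard, the adaptor between sensor and caspase, fell from 68.2 and 52.1 TPM to 13.8 and 19.2 TPM (-1.81 ± 0.21). The caspase and its adaptor thus moved in opposite directions. Nlrp3, a sensor, stood at 295 and 339 TPM untreated and 485 and 368 TPM with LPS and did not pass (0.42 ± 0.17, or 0.66 (adjusted p = 0.0251) with median-ratio scaling).

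The most abundant transcripts before LPS were Lyz2 and Fth1, followed by Apoe and Ftl1. Lyz2, the lysozyme of macrophages, stood at 42151 and 36267 TPM untreated and 28492 and 31776 TPM with LPS and did not pass (-0.38 ± 0.18, or -0.54 (adjusted p = 0.0228) with quantile normalization). With LPS Fth1, Lyz2 and Saa3 led, and B2m, the light chain of MHC class I, rose from 5287 and 6238 TPM to 9522 and 10154 TPM (0.78 ± 0.17, limma adjusted p = 0.00356, or 0.071 with no filter on low values). The 50 most abundant genes of each library held 28.8 and 28.4% of all TPM untreated and 29.5 and 29.8% with LPS. The 200 most abundant genes held 47.5 and 45.03% and 45.8 and 45.8%, so that the direction depended on how many genes were counted.

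Wild-type cells differed from knockout cells in the LPS change of 152 genes (1.37%) by the interaction test in limma, 58 with a higher and 94 with a lower change in wild type, and 1160 (10.5%) had an unadjusted p under 0.05. The knockout change rests on a single untreated library. Of 25 cholesterol synthesis genes 15 had a higher change in wild type, and of 30 mitosis genes 18 had a lower one. Cyp51 stood at 16.3 TPM in the untreated knockout library and at 25.2 and 26.9 TPM in the knockout LPS libraries. The wild-type change of Cyp51 was higher by 2.47 ± 0.28. Ccnb2, a mitotic cyclin, stood at 6.16 and 3.59 TPM untreated and 5.49 and 6.48 TPM with LPS in wild type. In the knockout it stood at 5.02 TPM untreated and 53.2 and 59.7 TPM with LPS (difference of changes -2.97 ± 0.37). Wild-type LPS libraries thus lay near the untreated level for this cyclin and the knockout ones above it. Ccl7 stood at 18.8 TPM in the untreated knockout library and at 567 and 1225 TPM with LPS (difference -4.70 ± 0.58). Of interferon-stimulated genes 0 of 52 passed the interaction test, 5 with an unadjusted p under 0.05. The number of 152 became 16 without WT M0 replicate 1, 93 without WT M0 replicate 2, 72 and 64 without either knockout LPS library, and 10 with no filter on low values. The WT LPS libraries of this test are those with Xist, which was listed at 0 in all 3 knockout libraries, so genotype and the sex of the cells cannot be told apart under LPS.

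**Figure D5:**
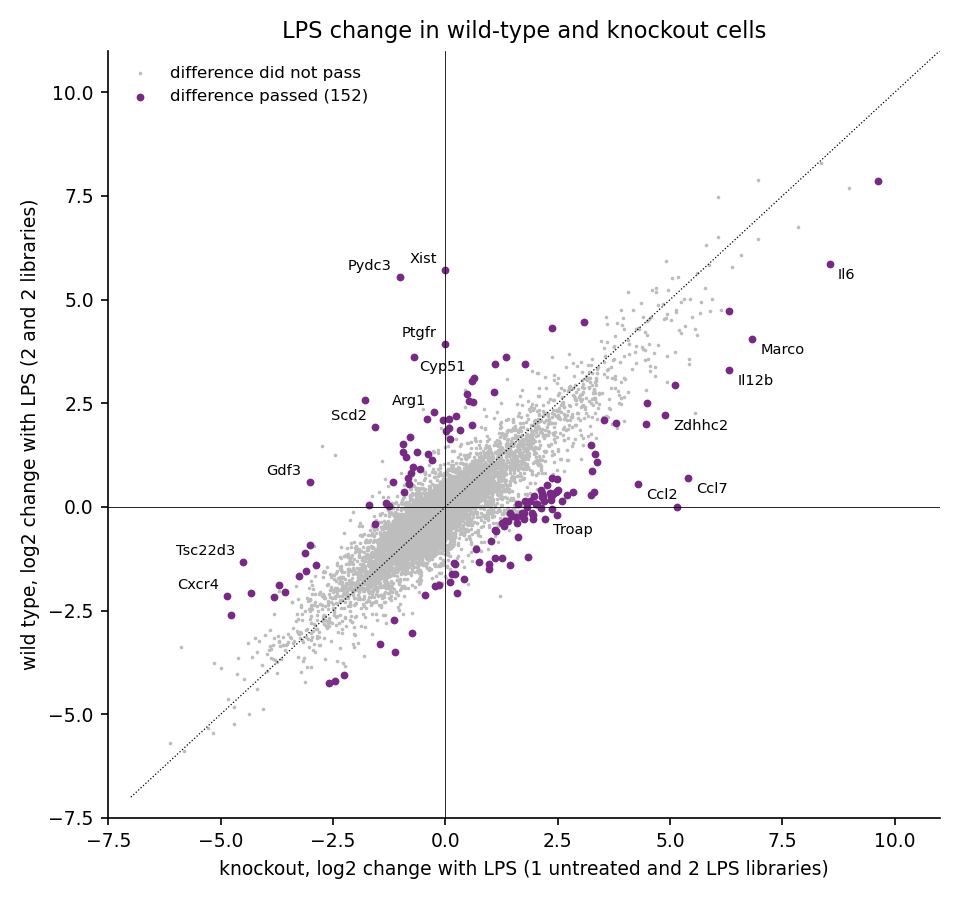
Log2 change with LPS in knockout cells (x, 1 untreated and 2 LPS libraries) and in wild-type cells (y, 2 and 2 libraries) for 11096 genes; purple points passed the interaction test at an adjusted p of 0.05 and the dotted line marks equal changes. Pydc3, Xist and Ptgfr lie above the line with a change near 0 or below in the knockout, and Ccl2 and Ccl7 lie below it.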

How the data were processed

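RNA sequencing of 7 libraries was used, 4 of them wild type. The authors deposited 1 expression value per gene and library, taken here as TPM because the values of each library sum to 1000000. The genome build is mm10, per the submitters' processing notes, while for the aligner, the quantification tool and the annotation the answer is: not given in the sources used here. TPM keep no depth, so counting error could not be computed.

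Changes were tested with limma 3.58.1 in R 4.3.3 on log2(TPM + 1), with group means over all 7 libraries, variances moderated along the mean trend (3 residual and 7.3 prior degrees of freedom) and Benjamini-Hochberg adjustment over the 11096 of 23337 genes whose TPM averaged 1 or more. A gene was called at an adjusted p of 0.05. With 2 libraries a group an exact test cannot go below p = 0.333 (two-sided). The interaction contrast was the wild-type change minus the knockout change. On simulated data with 200 changed genes among 11096 and independent noise, the wild-type contrast called 44.4% of the genes changed by 1 log2 unit. It called 88.2% of those changed by 2, and 5.01% of all its calls were false. Far more genes were called in the real data (4949), and no sex difference was simulated, so these shares need not hold there.

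The comparison and its 42 gene lists and 13 marker lists were chosen with earlier results of these data known. The text names the 15 largest rises and falls, up to 8 called and 2 uncalled members of a list, the most abundant genes, the 10 largest interactions in each direction and a set of 10 genes. The text also names Abca1, Adora2b, Alox5, Axl, C3, Calr, Ccl6, Cd86, Clec7a, Ebp, Gpx1, Ifitm3, Il1f9, Irf1, Mertk, Osm, Scap, Tbxas1, Thbs1, Xbp1 and Zfp36, which were chosen after their values were seen, while Acp5, Cd4, Cd68, Col1a1, Csf1r, Eif2s3y, Emr1 and Pdgfrb are markers. Alternatives were another scaling, pseudocount, filter, threshold or set of libraries.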

Additional observations from a re-analysis of the deposited data

Results flagged for a closer look

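The LPS change differed between genotypes by the interaction test (limma, adjusted p under 0.05) for each gene of this paragraph, and values are the log2 change in wild type minus that in the knockout, with the standard error. The knockout change rests on 1 untreated library. Of 32 such genes that the text names 1, Xist, passed in every alternative in which it was tested. The sterol and fatty acid genes Cyp51 (2.47 ± 0.28), Hmgcs1 (2.24 ± 0.28), Idi1 (2.25 ± 0.37) and Scd2 (3.48 ± 0.52) had the higher change in wild type. The cell division genes Ccnb2 (-2.97 ± 0.37), Mcm10 (-2.93 ± 0.34), Troap (-2.51 ± 0.36), Birc5 (-2.48 ± 0.35) and Cenpa (-2.37 ± 0.28) had the lower change in wild type. Cytokines and chemokines with the lower change in wild type were Ccl7 (-4.70 ± 0.58), Ccl2 (-3.71 ± 0.44), Il12b (-3.02 ± 0.35), Il6 (-2.68 ± 0.43), Cx3cl1 (-2.29 ± 0.37) and Cxcl1 (-1.74 ± 0.31). Il1f9 (1.96 ± 0.40) had the higher change. For Ccl2 the wild-type change was 0.56 and the knockout change 4.27, and for Il6 they were 5.87 and 8.55.

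Pydc3 (Ifi208), an interferon-inducible gene with near copies, was listed at 0 or stood at 0.0379 TPM in untreated wild type and at 60.98 and 35.2 TPM with LPS, against 1.56 TPM untreated and 0.412 and 0.147 TPM with LPS in the knockout (6.55 ± 0.43). Xist (5.70 ± 0.34) and Ptgfr (3.93 ± 0.45) were listed at 0 in all 3 knockout libraries. The X-linked genes Tsc22d3 (3.17 ± 0.30) and Mid1 (2.55 ± 0.37) also had the higher change in wild type. So did Gdf3 (3.61 ± 0.31), Cxcr4 (2.69 ± 0.48), Arg1 (2.54 ± 0.37) and Clec7a (2.02 ± 0.32). The lower change in wild type was found for Marco (-2.78 ± 0.57), Zdhhc2 (-2.66 ± 0.36), Ch25h (-1.98 ± 0.38), Lcn2 (-1.77 ± 0.28), Col1a1 (-1.79 ± 0.37), Gas6 (-1.73 ± 0.23) and Igfbp4 (-1.66 ± 0.31). Without WT M0 replicate 1 the number of genes that passed was 16 in place of 152, and the part of the Xist difference between the LPS libraries in these values was not tested.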

How the results depend on the processing

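The number of genes called between WT LPS and WT M0 lay between 3379 and 5632 in the alternatives, against 4949, and stayed within 1.5 times of it in each. Leaving out 1 library gave 3570 to 4947. The split between higher and lower depended on the scaling: 2485 and 2289 with median-ratio scaling and 2251 and 2539 with quantile normalization, where 1664 genes called higher and 2289 called lower under the deposited scaling kept that call with the former and 0 reversed. At an adjusted p of 0.01 the number lower was 2181. The interaction gave 92 genes with a pseudocount of 0.1, 10 with no filter, 28 at an adjusted p of 0.01 and 16 to 139 without 1 library. The share of TPM in the most abundant genes, LPS minus untreated, was 1.03 percentage points for 50 genes, 2.06 for 10 and -0.43 for 200; the cause was not tested for any of these. Labels give the groups the same replicate numbers. Same-numbered libraries had positively correlated deviations (0.0804, 0.298 and 0.181 for the 3 pairs of groups). With 2 pairs a comparison, whether the numbers mark a shared batch or pairing cannot be told. The replicate block gave 5632 genes, 1925 higher and 3707 lower, which moved the count by less than 1.5 times. Of the genes named it turned the calls of Ccl2 (limma adjusted p = 0.0463), Cxcl1 (0.0283) and Ftl1 (0.0296), which then passed. Of 222 genes named in the comparison 184 kept their direction and call in every alternative. Genes that reversed had not passed the test. With quantile normalization Troap was 0.0039, and with median-ratio scaling Dusp1 was 0.17, Hspa5 0.0088 and Tlr2 0.097. Without 1 library the lowest and highest changes were -0.28 and 0.32 for Il10, -0.32 and 0.18 for Dusp1, -0.075 and 0.11 for Sfpi1, -0.34 and 0.058 for Tlr2, -0.082 and 0.24 for Emr1 and -0.039 and 0.60 for Ccnb2. Unknown depth limits the low genes, whose folds are understated.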

Other observations

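Glucocorticoid-responsive genes, which had no comparison of their own, moved in both directions. Of 12 tested genes 3 rose (25.0%) and 5 fell (41.7%) after LPS, against 15% and 29.6% of all genes. None of the rises reached 1 log2 unit, and the list median lay 0.088 above that of the median gene. Nr3c1, the glucocorticoid receptor, went from 42.9 and 59.7 TPM to 97.4 and 98.8 TPM (0.94 ± 0.20). Tsc22d3, an anti-inflammatory target of that receptor, went from 104 and 143 TPM to 49.9 and 45.6 TPM (-1.33 ± 0.19). Anxa1, an anti-inflammatory lipid-binding protein, went from 1501 and 1499 TPM to 894 and 893 TPM (-0.75 ± 0.16). The receptor was thus higher while these 2 genes were lower. Mt2, a metallothionein, stood at 293 and 154 TPM untreated and 295 and 587 TPM with LPS, with replicates as far apart as the groups, and did not pass. It passed without WT M0 replicate 1, with a change of 1.43 (adjusted p = 0.0409), without WT LPS replicate 1, with 1.47 (adjusted p = 0.0207), and with the compared groups alone (adjusted p = 0.0345).

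Other marker lists gave lower values than the macrophage list. The T cell sum came mostly from 1 gene in all 4 libraries, and the osteoclast sum did so only with LPS. The 7 T cell markers summed to 12.1 and 15.8 TPM untreated and 1.69 and 1.92 TPM with LPS, of which Cd4 was 11.6 and 14.4 TPM and 1.23 and 1.19 TPM, and the other 6 stayed under 1 TPM in all 4 libraries. The 6 osteoclast markers summed to 67.5 and 50.5 TPM and 162 and 176 TPM, of which Acp5, an acid phosphatase, was 33.2 and 24.9 TPM and 134 and 156 TPM.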
